A study of Mus musculus with 2 samples.

Results

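Cells with at least 1 transcript of Ncr1, the gene of the activating receptor NKp46, and none of T cell receptor or CD3 genes are described here among group 3 innate lymphoid cells (ILC3s) from the gut of aged mice. ILC3s were sorted from the lamina propria of the small intestine of 18-month-old male C57BL/6 mice and profiled as single cells with unique molecular identifiers (UMIs) in 2 replicate libraries of 1 group. The labels give neither a genotype nor whether the replicates came from separate animals, so the spread between them may be technical. The series as a whole concerns Cxxc1 and aging, but no second age or genotype was analysed here, and each comparison below is between populations of the same libraries. A cell belonged to the Ncr1 gate if it carried the sample tag of its replicate, had at least 300 genes and at most 25% mitochondrial UMIs, held at least 1 Ncr1 UMI and no UMI of Ccr6, Cd4, Cd3d, Cd3e, Cd3g, Trac or Trdc, and had a sum of Ccl5 and Gzma UMIs under 2. The gate held 507 of 3337 kept cells in replicate 1 (15.2%, exact 95% binomial interval 14.0 to 16.5%) and 387 of 3840 in replicate 2 (10.1%, 9.14 to 11.1%), or 894 of 7177 cells in all. Because the members were chosen by their measured UMIs of these genes, the levels of the gate genes are a description and were not tested. The mean share was 12.6% ± 3.62 (SD, n = 2), and the interval covers counting error only.

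ILC3s carry no antigen receptor and answer signals from epithelium, myeloid cells and nerves with cytokines such as IL-22, which acts on epithelial cells. In the mouse gut they fall into lymphoid tissue inducer-like cells, which display CCR6 and often CD4, and cells that display NKp46 and natural killer cell receptors and use the transcription factor T-bet. Cells of the NKp46 kind can produce interferon-γ, and ILC1s, their relatives, do so together with granzymes and chemokines. RUNX factors bind the Ncr1 promoter region and are required for ILC3s.

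The start of Ncr1 is shown because a transcript of this gene defined the cells. Ncr1 lies at chr7:4337724-4345164 on the + strand (GRCm38). The window below, chr7:4337465-4337764 on the + strand of GRCm38.p6, runs from 250 bases before the RefSeq gene start to 50 bases after it, with the RUNX letters TGTGGT or their reverse complement ACCACA in capitals.
Ncr1 promoter: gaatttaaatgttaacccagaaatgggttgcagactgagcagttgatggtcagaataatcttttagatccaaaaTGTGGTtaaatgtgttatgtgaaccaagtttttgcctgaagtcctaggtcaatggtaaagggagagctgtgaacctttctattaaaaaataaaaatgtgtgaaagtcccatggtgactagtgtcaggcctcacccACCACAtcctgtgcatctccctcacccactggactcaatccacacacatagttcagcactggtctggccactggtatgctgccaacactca
The letters start at -176 and -41 relative to the gene start. Of 32851 promoter windows of the same length, 5506 (16.8%) hold them on either strand, so their presence describes the sequence and does not by itself show a binding site.

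The gate rested on few Ncr1 molecules per cell. In replicate 1, 348 of the 507 gate cells held a single Ncr1 UMI, and in replicate 2, 327 of the 387 did. Cells with 2 UMIs numbered 117 and 46, cells with 3 or more 42 and 14, and the highest cell held 7 and 4 UMIs in replicates 1 and 2. Just outside the gate, 16 and 6 further Ncr1-positive cells were left out for a Ccl5 and Gzma sum of 2 or more, and the sum was exactly 2 in 6 and 1 of them. Just inside it, 39 and 17 gate cells had a sum of 1. A further 109 and 65 Ncr1-positive cells held CD3 or T cell receptor UMIs, and 15 and 5 held Ccr6 or Cd4.

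The cells outside the gate formed 4 populations. Cells that met every gate condition except that no Ncr1 UMI was counted, called Ncr1-zero counterparts, numbered 1269 and 1836 in replicates 1 and 2. How many of them had Ncr1 transcripts that were not captured was not tested. Cells with Ccr6 or Cd4 UMIs numbered 129 and 70, and Ccl5 or Gzma high cells (sum of 2 or more) 53 and 42, both without CD3 or T cell receptor UMIs. T cell receptor positive cells, with at least 1 UMI of the 5 CD3 or receptor genes, numbered 1379 and 1505. Median UMIs per cell were 2019 and 1846 in the gate, against 1853.5 and 1650 in all other kept cells and 1687 and 1571 in the counterparts. A condition of at least 1 UMI selects deeper cells. All sums are therefore given as CPM, the UMIs of a gene scaled to a common total of UMIs per population. Several shares of cells are given also after each cell was thinned to 1000 UMIs.

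The label of the cells was checked against Il7r, the interleukin-7 receptor chain of innate lymphoid cells, and Kit, a receptor of ILC3s. An Il7r UMI was found in 92.5% and 95.1% of gate cells (81.9% and 85.9% after thinning), but T cell receptor positive cells had it in 93.6% and 93.0%, so Il7r did not separate the gate from T cells. A Kit UMI was found in 51.1% and 43.2% of gate cells, against 19.1% and 14.4% of T cell receptor positive cells; after thinning the shares were 31.8% and 24.9%, against 10.8% and 8.63%. Eomes, a factor of conventional natural killer cells, was counted in 0 of 507 and 0 of 387 gate cells, which allows a share of cells with a UMI of up to 0.592% and 0.775%. Tbx21, the gene of T-bet, was counted in 17.8% and 14.99% of gate cells, against 11.8% and 10.3% of T cell receptor positive cells; after thinning the gate had 9.37% and 9.49%. Kit thus set the gate apart from T cells in these counts, and Il7r did not.

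Transcripts of T cell receptor constant genes that the rule did not name were common in the gate. Innate lymphoid cells are known to transcribe unrearranged receptor loci. Before thinning, Trbc2 was counted in 54.0% and 50.1% of gate cells, against 39.9% and 41.3% of the counterparts and 74.9% and 69.8% of T cell receptor positive cells. These shares follow depth. Trbc1 had 524 and 467 CPM in the gate, against 409 and 400 CPM in all other kept cells, and Tcrg-C4 had 254 and 177 CPM, against 181 and 122 CPM. Tcrg-C2 had 8.13 and 7.98 CPM in the gate, against 102 and 80.1 CPM. Leaving out every cell with a UMI of Trbc1, Trbc2, Tcrg-C1, Tcrg-C2, Tcrg-C4, Cd8a or Cd8b1 kept 47 and 64 gate cells. Whether some gate cells were T cells whose CD3 transcripts were not captured was not tested.

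**Figure D1:**
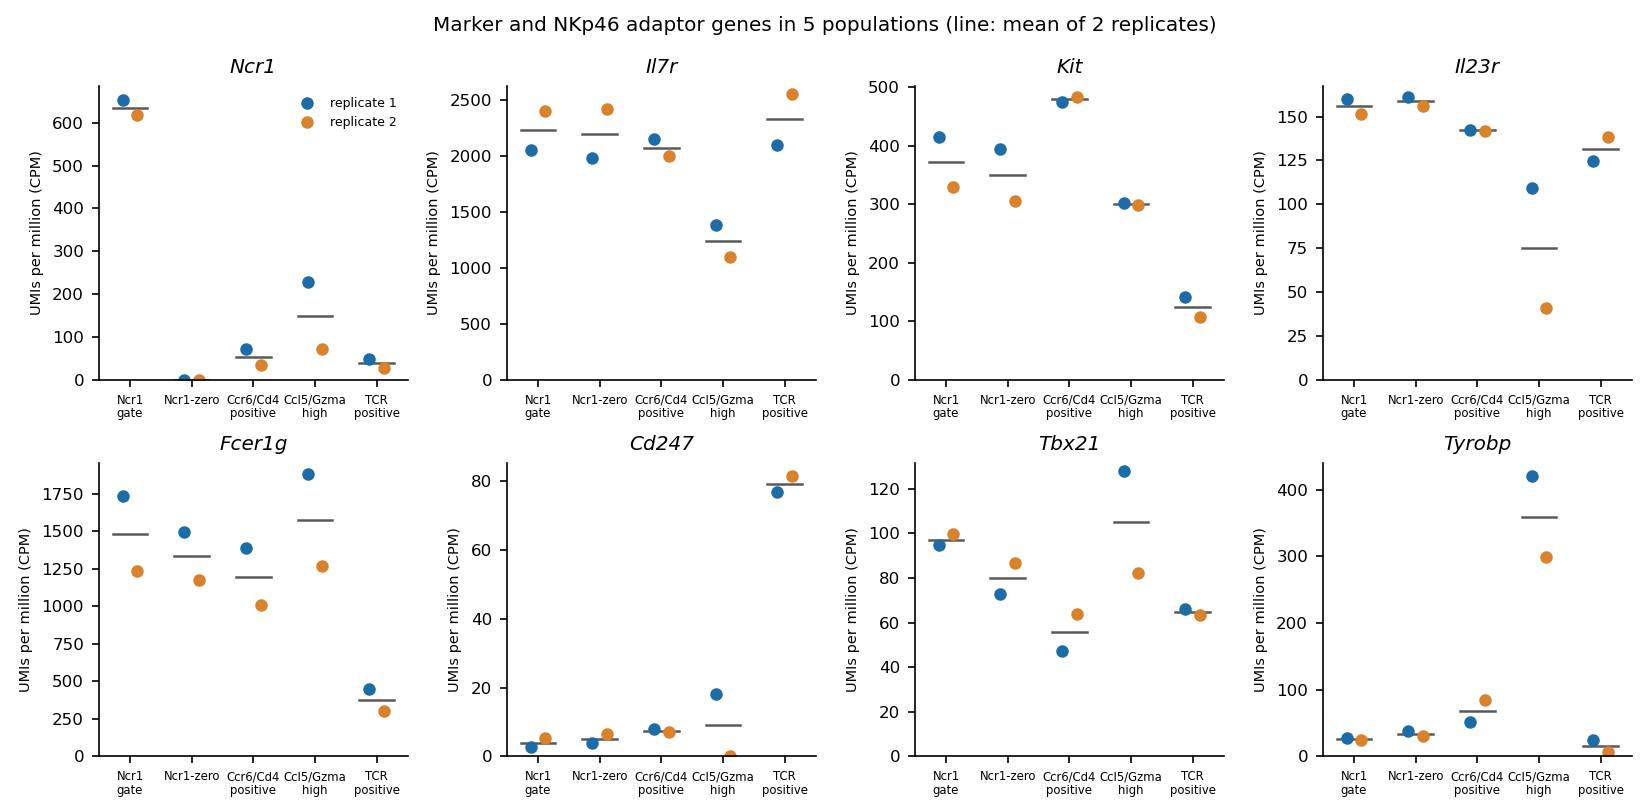
Levels (y axis, CPM of summed UMIs) of 8 marker and adaptor genes in the Ncr1 gate and the 4 other populations (x axis), with 1 point per replicate and a line at the mean of 2 replicates. Kit stood at 415 and 329 CPM in the gate, above the T cell receptor positive cells with 141 and 108 CPM, while Il7r overlapped between those populations.

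The libraries held 15793 and 16531 cells, of which 3427 and 3954 carried the tag of these samples; 572 and 987 tag multiplets were not used, and 90 and 114 tagged cells were left out by the gene and mitochondrial limits. The kept cells summed to 6939790 and 6810214 UMIs, of which the gate held 1107252 and 751853. The replicates shared 10 cell barcodes, where random choice would give 14.8. Immunoglobulin and fibroblast transcripts were present in every population of replicate 1 and differed between replicates. In replicate 2 the 8 fibroblast genes were at 0 in the Ccl5 or Gzma high cells. Those genes summed to 4817 and 47.9 CPM in the gate, against 6338 and 161 CPM in the counterparts. B and plasma cell genes summed to 6743 and 7391 CPM, against 10383 and 4801 CPM, with Ms4a1, the gene of the B cell antigen CD20, at 0 in all 4 sums. Igkc, an immunoglobulin chain gene, was counted after thinning in 23.2% and 4.07% of gate cells, against 22.4% and 3.47% of T cell receptor positive cells. Myeloid genes summed to 386 and 255 CPM in the gate, against 780 and 351 CPM in the counterparts. Cells with 20 or more UMIs of such other-type markers numbered 14 and 1 in the gate, against 72 and 12 among the counterparts. The part of these transcripts in the results was not tested, but the counts of calls of each comparison are also given without those cells, below called marker-rich cells.

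Set against all other kept cells, the gate cells were rich in natural killer receptors and in Xcl1, Ccr9, Gjb2, Nos2 and Slc6a20a, and poor in Il17a, Il17f, Ifng, Gzmb and Vegfa. With edgeR's quasi-likelihood test and Benjamini-Hochberg adjustment at 0.05, 558 of 10044 genes differed (5.56%), 187 higher (1.86%) and 371 lower (3.69%) in the gate. The other kept cells include T cells, which the gate removed by CD3 and receptor genes, so the lower levels of T cell genes restate the rule. The rule also barred Ccr6 and Cd4 and required Ncr1, so genes carried together with these are parted by it as well. Lymphoid tissue inducer-like genes other than Ccr6 and Cd4 were lower in 8 of 11 cases and class II genes in 4 of 5. Among the T cell genes were Cd40lg, a helper T cell ligand, with 0.903 and 5.32 CPM in the gate, against 152 and 117 CPM in the other cells, and Cd8a, with 1 UMI in the gate against 456.

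Of 18 tested NKp46 signalling and natural killer receptor genes, 9 were higher and 1 was lower, with a median log2 ratio of 0.64, against a median of -0.02 over all tested genes. Fcer1g, an adaptor chain through which NKp46 signals, had 1734 and 1234 CPM in the gate, against 941 and 772 CPM in the other cells. The gate was higher within each replicate, and the log2 ratio was 0.76 (SE 0.07, adjusted p = 7.5e-23). Cd247, the CD3ζ chain that pairs with both NKp46 and the T cell receptor, had 2.71 and 5.32 CPM in the gate, against 43.0 and 40.9 CPM in the others (log2 ratio -3.49, adjusted p = 1e-17). The gate lay above the other cells in Fcer1g and far below them in Cd247, a gene that T cells also use.

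Several killer lectin-like receptor genes rose. Klrk1, the gene of the stress-ligand receptor NKG2D, had 277 and 342 CPM in the gate, against 149 and 180 CPM in the other cells (log2 ratio 0.89, SE 0.10, adjusted p = 5.4e-16). Klrb1c, which encodes the NK1.1 antigen, had 165 and 77.1 CPM, against 68.4 and 37.1 CPM (log2 ratio 1.18, SE 0.15). The difference between replicates in Klrb1c was seen on both sides, and the gate was higher within each replicate. Klrb1b (log2 ratio 0.62), Klrb1f (0.95), Klri2 (0.99), Cd244a (1.18), Cd160 (0.72) and Cd226 (0.55) were also higher. Cd244a encodes the receptor 2B4 of natural killer cells, and Cd226 the adhesion receptor DNAM-1.

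Xcl1, a chemokine that draws cross-presenting dendritic cells, had 523 and 515 CPM in the gate, against 264 and 270 CPM in the other cells. Xcl1 was higher within each replicate, by 1.91-fold in the fit (log2 ratio 0.94, SE 0.09, adjusted p = 3.2e-23). Tbx21 had 94.8 and 99.8 CPM, against 69.3 and 75.4 CPM (log2 ratio 0.41, adjusted p = 0.086), and Ifng, the interferon-γ gene, fell to 31.6 and 41.2 CPM in the gate, against 65.7 and 73.3 CPM (log2 ratio -0.97, SE 0.19, adjusted p = 4e-05). Of 17 type 1 genes, 2 were higher (Xcl1 and Irf8) and 2 lower (Il21r and Ifng). Of 13 cytotoxic genes, 3 were higher and 2 lower. Serpinb9, which protects a cell from its own granzyme B, had 1193 and 1567 CPM, against 639 and 1063 CPM (log2 ratio 0.71), while Gzmb itself had 24.4 and 39.9 CPM, against 132 and 104 CPM (log2 ratio -1.97, adjusted p = 2.9e-23). The gate sets a limit on Ccl5 and Gzma, which removes the cells richest in such transcripts.

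Among cytokines, Csf2, Hbegf and Il22 were higher and Il17a, Il17f, Vegfa and Ccl4 lower, of 16 tested. Csf2, the gene of GM-CSF, had 210 and 504 CPM in the gate, against 133 and 322 CPM in the other cells (log2 ratio 0.63, SE 0.10, adjusted p = 1.5e-08). Il22 had 2168 and 2083 CPM, against 1624 and 1883 CPM (log2 ratio 0.26, SE 0.07, adjusted p = 0.0039). The Il22 difference was the smallest of these and was not called when the populations were set after thinning (log2 ratio -0.08, adjusted p = 0.84). Il17a had 4.52 and 13.3 CPM, against 34.1 and 35.5 CPM (log2 ratio -2.11), and Il17f 15.4 and 26.6 CPM, against 58.3 and 50.2 CPM (log2 ratio -1.47).

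Of 4 nitric oxide and epithelial-type genes 2 were higher, of 16 homing and retention genes 1 was higher and 3 were lower, and of 15 environment sensing genes 0 were higher by edgeR and 2 lower. Gjb2, which encodes the gap junction protein connexin 26, had 715 and 1100 CPM in the gate, against 367 and 697 CPM in the other cells (log2 ratio 0.78, SE 0.08, adjusted p = 9.6e-21). Nos2, the inducible nitric oxide synthase gene, had 142 and 263 CPM, against 61.0 and 154 CPM (log2 ratio 0.94, SE 0.12). For both genes replicate 2 was the higher on either side, and within each replicate the gate was higher. Tnfsf11, which encodes RANKL, had 696 and 545 CPM, against 510 and 385 CPM (log2 ratio 0.45, adjusted p = 5e-06). Ccr9, the receptor that guides lymphocytes to the small intestine, had 567 and 362 CPM, against 286 and 224 CPM (log2 ratio 0.84, SE 0.09, adjusted p = 1.6e-17). Slc6a20a, an amino acid transporter gene, had 564 and 447 CPM, against 193 and 223 CPM (log2 ratio 1.27, SE 0.09, adjusted p = 8.1e-41). Slc6a20a and Ccr9 lie on opposite strands of chromosome 9 and their annotations share 447 bases; whether counting used the strand is not given in the sources used here, so their reads may not be fully separable.

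The genes named for the largest changes held several that rested on single cells. Of the 12 higher ones, Ifit3, Rsad2 and Thbs1 had over 50% of their gate UMIs in 1 cell, with 95.8% for Ifit3, and Nox1, an NADPH oxidase gene, had 21.7 and 26.6 CPM, against 7.37 and 8.58 CPM (log2 ratio 1.57, SE 0.32, adjusted p = 6e-05). Without the cells rich in other-type markers, 9 of the 12 were still called. Of the 12 lower ones, Arhgef10 had 0 UMIs in the gate against 102 in the other cells, at least 5.32-fold lower by a floor of 3 counts over the gate, and Adra2a was at least 4.48-fold lower. ILC3 identity genes mostly did not differ: of 20, Kit was higher (415 and 329 CPM, against 262 and 219 CPM, log2 ratio 0.61) and Zbtb16, the PLZF gene of innate lymphoid precursors, lower. Hk2, a hexokinase gene, Tpi1 and Pgam1 were the 3 glycolysis genes of 16 that were higher, with log2 ratios of 0.35, 0.61 and 0.42 (Tpi1 -0.11 with at least 2 Ncr1 UMIs per gate cell), while 0 of 19 respiratory chain genes were called by this test. Over all tested genes 5.56% were called, so 0 of 19 is near that share.

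Without marker-rich cells 558 genes were again called, of 9525 tested. Of these, 229 were higher and 329 lower, and 443 were shared in direction with the calls above. In that setting 9 of 18 natural killer receptor genes were again higher and 1 lower, and 3 of 17 type 1 genes were higher and 2 lower. Of 16 cytokine genes, 4 were higher and 4 lower, and 7 of 11 lymphoid tissue inducer-like genes were lower.

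This comparison had 1 residual degree of freedom, and without the replicate as a block 0 genes were called by edgeR, with 303 at an unadjusted p under 0.05. Its calls also fell to 126 with at least 2 Ncr1 UMIs per gate cell and to 80 with DESeq2's Wald test.

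Against their Ncr1-zero counterparts, the gate cells were lower in genes of antigen presentation and of lymphoid tissue inducer-like cells. Higher in the gate were Xcl1, Ccr9, Slc6a20a, Il12rb2, Nkg7, Cd160 and, resting on few cells, the proliferation gene Mki67. Of 8351 genes, 95 (1.14%) differed, 9 higher (0.108%) and 86 lower (1.03%). Of 20 ILC3 identity genes 0 were called by edgeR, which is near the share of 1.14% over all tested genes. Kit (log2 ratio 0.08) and Il7r (0.00) were among the 20.

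Xcl1 had 523 and 515 CPM in the gate, against 316 and 344 CPM in the counterparts (log2 ratio 0.63, SE 0.12, adjusted p = 0.0052). Il12rb2, the signalling chain of the interleukin-12 receptor, had 42.4 and 70.5 CPM, against 12.2 and 31.0 CPM (log2 ratio 1.32, SE 0.26, adjusted p = 0.0062). Nkg7, a cytotoxic granule gene, had 211 and 186 CPM, against 135 and 125 CPM (log2 ratio 0.58, SE 0.14, adjusted p = 0.038). In all 3 genes the gate was higher within each replicate. Cd160 had 173 and 87.8 CPM, against 107 and 62.1 CPM (log2 ratio 0.61, adjusted p = 0.033); without the cells rich in other-type markers its adjusted p was 0.095. Ccr9 and Slc6a20a both had a log2 ratio of 0.55 (adjusted p = 0.012 and 0.022). Mki67, a gene of cycling cells, had 27.1 and 34.6 CPM, against 8.01 and 12.2 CPM (log2 ratio 1.54, SE 0.33, adjusted p = 0.012), but only 8 and 7 gate cells held a UMI of it. A single gate cell held 9 of its 30 UMIs in replicate 1 and 18 of its 26 in replicate 2.

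The natural killer receptor list had 1 call among 17 tested genes, with a median log2 ratio of 0.43, against -0.01 over all tested genes. Klrb1c (log2 ratio 0.62, adjusted p = 0.058), Cd244a (0.74, 0.13) and Klrk1 (0.33) were not called. Of 17 type 1 genes, 2 were higher and 0 lower by edgeR. Tbx21 (log2 ratio 0.26) and Ifng (0.36) were not called, nor were Csf2 (0.11), Nos2 (0.25), Gjb2 (0.09) and Fcer1g (0.12). Il22 had 2168 and 2083 CPM, against 2348 and 2670 CPM (log2 ratio -0.26, SE 0.16, adjusted p = 0.88).

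**Figure D2:**
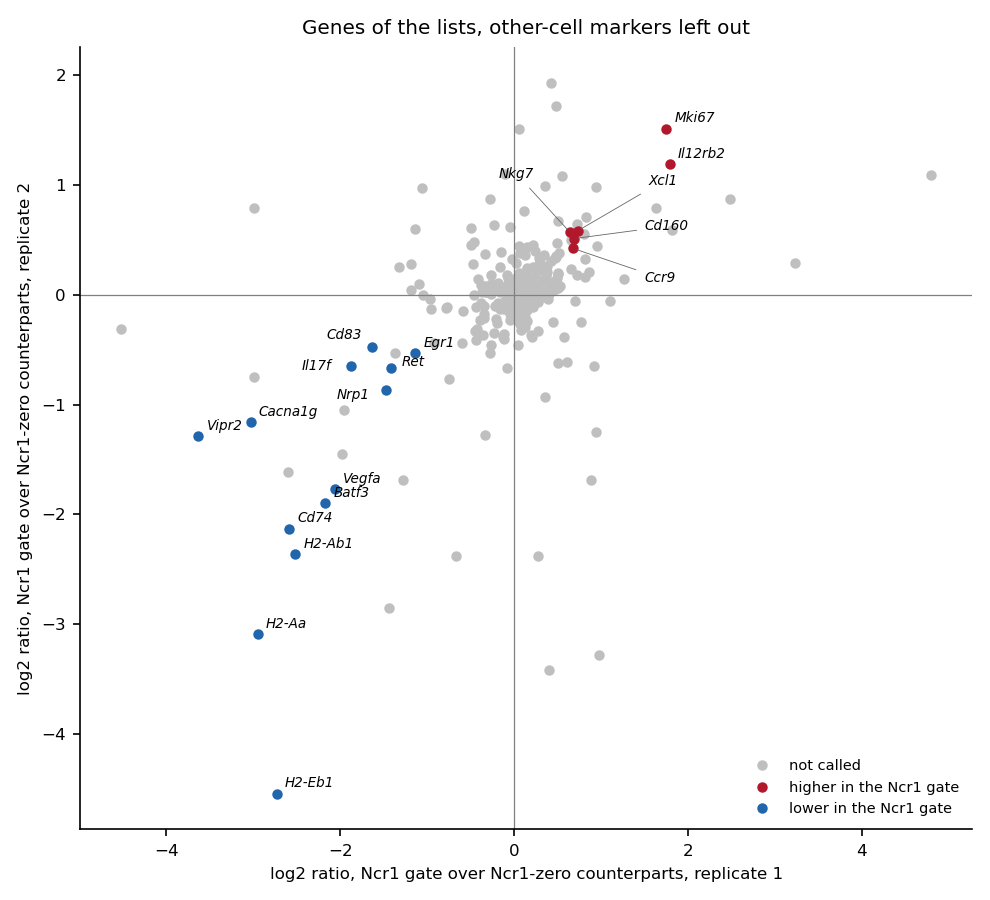
Each point is a list gene, with other-cell markers left out, at its log2 ratio of the Ncr1 gate over the Ncr1-zero counterparts in replicate 1 (x axis) and replicate 2 (y axis), before TMM scaling. Genes called higher (red) and lower (blue) lie on the same side of 0 in both replicates.

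Of 6 class II antigen presentation genes, 4 were lower, with a median log2 ratio of -2.71. ILC3s of the lymphoid tissue inducer-like kind are known to present antigen by MHC class II. H2-Aa, an MHC class II α chain gene, had 51.5 and 18.6 CPM in the gate, against 402 and 164 CPM in the counterparts (log2 ratio -2.95, SE 0.52, adjusted p = 0.0016). Cd74, the invariant chain gene, had 107 and 59.9 CPM, against 645 and 264 CPM (log2 ratio -2.40, SE 0.44, adjusted p = 0.0026). H2-Eb1 (log2 ratio -2.96) and H2-Ab1 (-2.46) were lower as well. In all 4 genes the gate was lower within each replicate, although myeloid genes, which mark other class II bearing cells, were also lower in the gate sums. The promoter of H2-Aa is shown because 4 of the 6 class II genes fell. The window, chr17:34287774-34288073 on the - strand of GRCm38.p6 from RefSeq, has a cAMP response element (TGACGTCA) and a CCAAT box on the reverse strand (ATTGG) in capitals.
H2-Aa promoter: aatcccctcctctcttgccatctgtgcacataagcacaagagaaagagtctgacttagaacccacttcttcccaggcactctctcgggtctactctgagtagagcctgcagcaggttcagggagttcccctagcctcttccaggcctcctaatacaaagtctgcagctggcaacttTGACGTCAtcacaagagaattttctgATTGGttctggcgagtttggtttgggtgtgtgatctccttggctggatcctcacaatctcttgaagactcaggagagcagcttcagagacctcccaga
The first starts at -74 and the second at -48 relative to the gene start; 1.79% and 37.4% of all promoter windows hold these letters on either strand. H2-Eb1's window holds the CCAAT letters and not those of the cAMP response element. No window was found under the symbols H2-Ab1 and Cd74, so their promoters were not searched. The RUNX letters of the Ncr1 window also occur in the windows of Xcl1, Nkg7 and Cd160, and not in those of Ccr9, Slc6a20a, Il12rb2 and Mki67.

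Of 11 genes of lymphoid tissue inducer-like cells other than Ccr6 and Cd4, 6 were lower in the gate, with a median log2 ratio of -1.29. Cd83, an activation marker of antigen-presenting cells, had 56.9 and 89.1 CPM in the gate, against 177 and 125 CPM in the counterparts (log2 ratio -1.11, SE 0.20, adjusted p = 0.0023). Ret, the receptor of glial-derived neurotrophic factors, had 35.2 and 42.6 CPM, against 94.4 and 68.7 CPM (log2 ratio -1.10, adjusted p = 0.0073). Nrp1 (log2 ratio -1.31), Batf3 (-2.28), Cacna1g (-2.46) and Vipr2 (-2.94), which encodes a receptor for vasoactive intestinal peptide, were the others. Of 16 cytokine and growth factor genes 2 were lower. Vegfa had 21.7 and 19.95 CPM, against 92.3 and 70.0 CPM (log2 ratio -1.96, SE 0.28, adjusted p = 9.8e-05), and Il17f 15.4 and 26.6 CPM, against 57.7 and 42.6 CPM (log2 ratio -1.33, adjusted p = 0.0094). All 4 genes given with their levels were below the counterparts in each replicate. The counterparts lack Ccr6 and Cd4 UMIs by rule, but a cell of that kind with no such UMI captured would be counted among them.

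The 12 genes with the largest falls, led by Lyz2 (5 UMIs in the gate against 509), Ccl22 and Lgmn, are largely genes of myeloid and stromal cells. Without the cells rich in other-type markers 0 of the 12 were called by edgeR: 9 were not tested and 3 did not pass, among them Adamdec1 (log2 ratio -0.85, adjusted p = 0.88). In that setting 45 of 8024 genes were called, 9 higher and 36 lower, of which 30 were among the 95. Of 14 cell cycle genes, Mki67 (log2 ratio 1.69), Stmn1 (1.04) and Rrm2 (2.20) were higher. There 4 of 6 class II genes and 6 of 11 lymphoid tissue inducer-like genes were again lower, and 0 of 17 natural killer receptor genes were called by edgeR. Calls numbered 184 with no filter on low counts and 18 with at least 2 Ncr1 UMIs per gate cell, where neither Xcl1 (log2 ratio 0.57) nor H2-Aa (-2.89) was called.

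Against cells with Ccr6 or Cd4 UMIs, the gate cells had less of the lymphoid tissue inducer-like programme, including MHC class II, Il17f, Vegfa and Il22, and more natural killer receptors, granule genes, Ccr9 and Ifng. Ccr6 and Cd4 set this boundary and were not tested, and genes carried together with them are parted by the rule itself. The gate also required Ncr1, which parts genes carried together with Ncr1 in the same way. Of 8361 genes in the fit, 8351 were tested and 331 (3.96%) differed, 148 higher (1.77%) and 183 lower (2.19%). Of 11 lymphoid tissue inducer-like genes other than those of the gate, 9 were lower, with a median log2 ratio of -3.34, against 0.04 over all tested genes. Vegfa had 21.7 and 19.95 CPM in the gate, against 340 and 561 CPM in the Ccr6 or Cd4 positive cells (log2 ratio -4.32, SE 0.29, adjusted p = 7.1e-11). Cd83 had 56.9 and 89.1 CPM, against 669 and 824 CPM (log2 ratio -3.34, adjusted p = 3.3e-11), and Cxcr5, a receptor that guides cells to lymphoid follicles, had a log2 ratio of -5.53.

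Class II genes fell in 5 of 6 cases, with a median log2 ratio of -4.20. H2-Aa had 51.5 and 18.6 CPM, against 811 and 937 CPM (log2 ratio -4.58, SE 0.56, adjusted p = 2.8e-06). Il22 had 2168 and 2083 CPM in the gate, against 4947 and 4084 CPM (log2 ratio -1.05, SE 0.17, adjusted p = 0.00011). Both populations thus held abundant Il22, with the gate at 2.08-fold less. Il17f had 15.4 and 26.6 CPM, against 182 and 220 CPM (log2 ratio -3.26), and the immune ligands Tnfsf8 (log2 ratio -3.68) and Tnfsf4 (-3.23) were lower. Tcf7, a transcription factor of lymphoid precursors and ILC3s, had 257 and 267 CPM, against 578 and 469 CPM (log2 ratio -0.98). Of 20 immediate early genes 6 were lower, among them Egr1 (log2 ratio -1.67) and Jun (-0.76), as were 2 of 11 heat shock genes.

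Of 17 natural killer receptor genes, 6 were higher and 0 lower by edgeR, with a median log2 ratio of 1.08. Klrk1 had 277 and 342 CPM in the gate, against 98.9 and 156 CPM (log2 ratio 1.37, SE 0.23, adjusted p = 0.00025). Klrb1c (log2 ratio 1.71), Klrb1f (1.65), Cd226 (1.68), Slamf7 (1.65) and Cd160 (1.16) were the others. Ccr9 had 567 and 362 CPM, against 150 and 135 CPM (log2 ratio 1.75, SE 0.20, adjusted p = 9e-07). Xcl1 had 523 and 515 CPM, against 206 and 213 CPM (log2 ratio 1.35), and Nkg7 211 and 186 CPM, against 71.2 and 49.7 CPM (log2 ratio 1.71). Klrk1, Ccr9, Xcl1 and Nkg7 were higher in the gate within each replicate. Ifng had 31.6 and 41.2 CPM, against 3.96 and 7.10 CPM, which rest on 66 and 2 UMIs (log2 ratio 2.80, SE 0.73, adjusted p = 0.023), and Il12rb2 rested on 100 and 3 UMIs (log2 ratio 2.81, adjusted p = 0.02). Maf (log2 ratio 0.75), Ets1 (0.65) and Ikzf3 (1.01) were transcription factor genes that were higher, and Icos, a costimulatory receptor gene, had 1179 and 1688 CPM, against 609 and 1023 CPM (log2 ratio 0.88).

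Kit (log2 ratio -0.31) and Tbx21 (0.88, adjusted p = 0.16) were not called between these populations. Col1a1 and Sparc, matrix genes of fibroblasts, were called higher (log2 ratio 3.06 and 3.15), with 50.3% and 54.9% of their gate UMIs in 1 cell, and gave -0.38 and -0.00 without the cells rich in other-type markers. All 12 genes named for the largest falls were still called without those cells, as were 6 of the 12 named for the largest rises. In that setting 435 of 8024 genes were called, 191 higher and 244 lower, of which 306 were shared with the 331. Natural killer receptor genes then gave 8 higher of 17, and type 1 genes 5 higher and 1 lower of 17. Immediate early genes gave 2 higher and 7 lower of 20, heat shock genes 4 lower of 11 and glycolysis genes 3 higher of 15. Class II and lymphoid tissue inducer-like genes kept the counts above.

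Against Ccl5 or Gzma high cells, the gate cells had more of the ILC3 programme and less of the natural killer and type 1 programme. Those cells numbered 53 and 42, so single cells weigh on their sums. Of 8351 genes, 306 (3.66%) differed, 187 higher (2.24%) and 119 lower (1.42%). Of 20 ILC3 identity genes, 8 were higher and 1 was lower, with a median log2 ratio of 0.94, against 0.13 over all tested genes. Il7r had 2051 and 2402 CPM in the gate, against 1379 and 1092 CPM in the Ccl5 or Gzma high cells (log2 ratio 0.96), and Thy1 had 1681 and 1319 CPM, against 685 and 319 CPM (log2 ratio 1.69). Il1r1 (log2 ratio 1.60), Tcf7 (1.35), Tmem176a (1.47), Tmem176b (1.21) and Nfil3 (0.92) were also among the 8. Ahr, a ligand-sensing factor needed by ILC3s, was the exception, with 28.9 and 37.2 CPM, against 110 and 113 CPM (log2 ratio -1.66, adjusted p = 0.019).

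Il22 had 2168 and 2083 CPM in the gate, against 1141 and 598 CPM (log2 ratio 1.40, SE 0.20, adjusted p = 3e-05), and Csf2 had 210 and 504 CPM, against 36.5 and 124 CPM (log2 ratio 2.30). Nos2 had 142 and 263 CPM, against 45.6 and 10.3 CPM (log2 ratio 2.93, SE 0.48, adjusted p = 0.00026), and Gjb2 had 715 and 1100 CPM, against 329 and 185 CPM (log2 ratio 1.89). These genes were higher in the gate in each replicate. Hk2 had 1195 and 1073 CPM, against 456 and 309 CPM (log2 ratio 1.68).

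In the other direction, Gzmb had 24.4 and 39.9 CPM in the gate, against 621 and 299 CPM (log2 ratio -3.80, SE 0.35, adjusted p = 3e-08). Ccl4, a chemokine gene, had 33.4 and 38.6 CPM, against 803 and 1474 CPM (log2 ratio -4.77). Tyrobp, the DAP12 adaptor gene of activating receptors, had 27.1 and 23.9 CPM, against 420 and 299 CPM (log2 ratio -3.73). Ccl5 and Gzma set this boundary and were not tested, and a limit on them also removes cells that carry such genes together. Ifng had 31.6 and 41.2 CPM, against 155 and 196 CPM (log2 ratio -2.14, adjusted p = 0.00014), Il12rb2 had 42.4 and 70.5 CPM, against 383 and 402 CPM (log2 ratio -2.70), and Xcl1 had 523 and 515 CPM, against 1817 and 1556 CPM (log2 ratio -1.58). Of 17 type 1 genes, 6 were lower and 1 higher, and of 17 natural killer receptor genes 6 were lower, among them Klrd1 (log2 ratio -2.72) and Klrc1 (-2.30). Fcer1g (log2 ratio 0.04), Klrk1 (0.28), Tbx21 (-0.01) and Kit (0.43) were not called. Dppa2 had 72 UMIs in the gate and 0 in the Ccl5 or Gzma high cells, at least 2.67-fold higher by the same floor. Jchain, an immunoglobulin gene called higher (log2 ratio 5.09), had 52.4% of its gate UMIs in 1 cell and a log2 ratio of -0.14 without the cells rich in other-type markers. In that setting 340 of 8024 genes were called, 212 higher and 128 lower, of which 266 were shared with the 306. ILC3 identity genes then gave 9 higher and 1 lower of 20. Natural killer receptor genes gave 1 higher and 6 lower of 17, and type 1 genes 1 higher and 5 lower of 17. Class II genes were lower in 4 of 6 cases with all kept cells (median log2 ratio -3.51) and in 3 of 6 in that setting (-1.74). H2-Eb1 had 45.2 and 3.99 CPM in the gate, against 63.9 and 608 CPM, so its difference lay mainly in replicate 2.

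**Figure D3:**
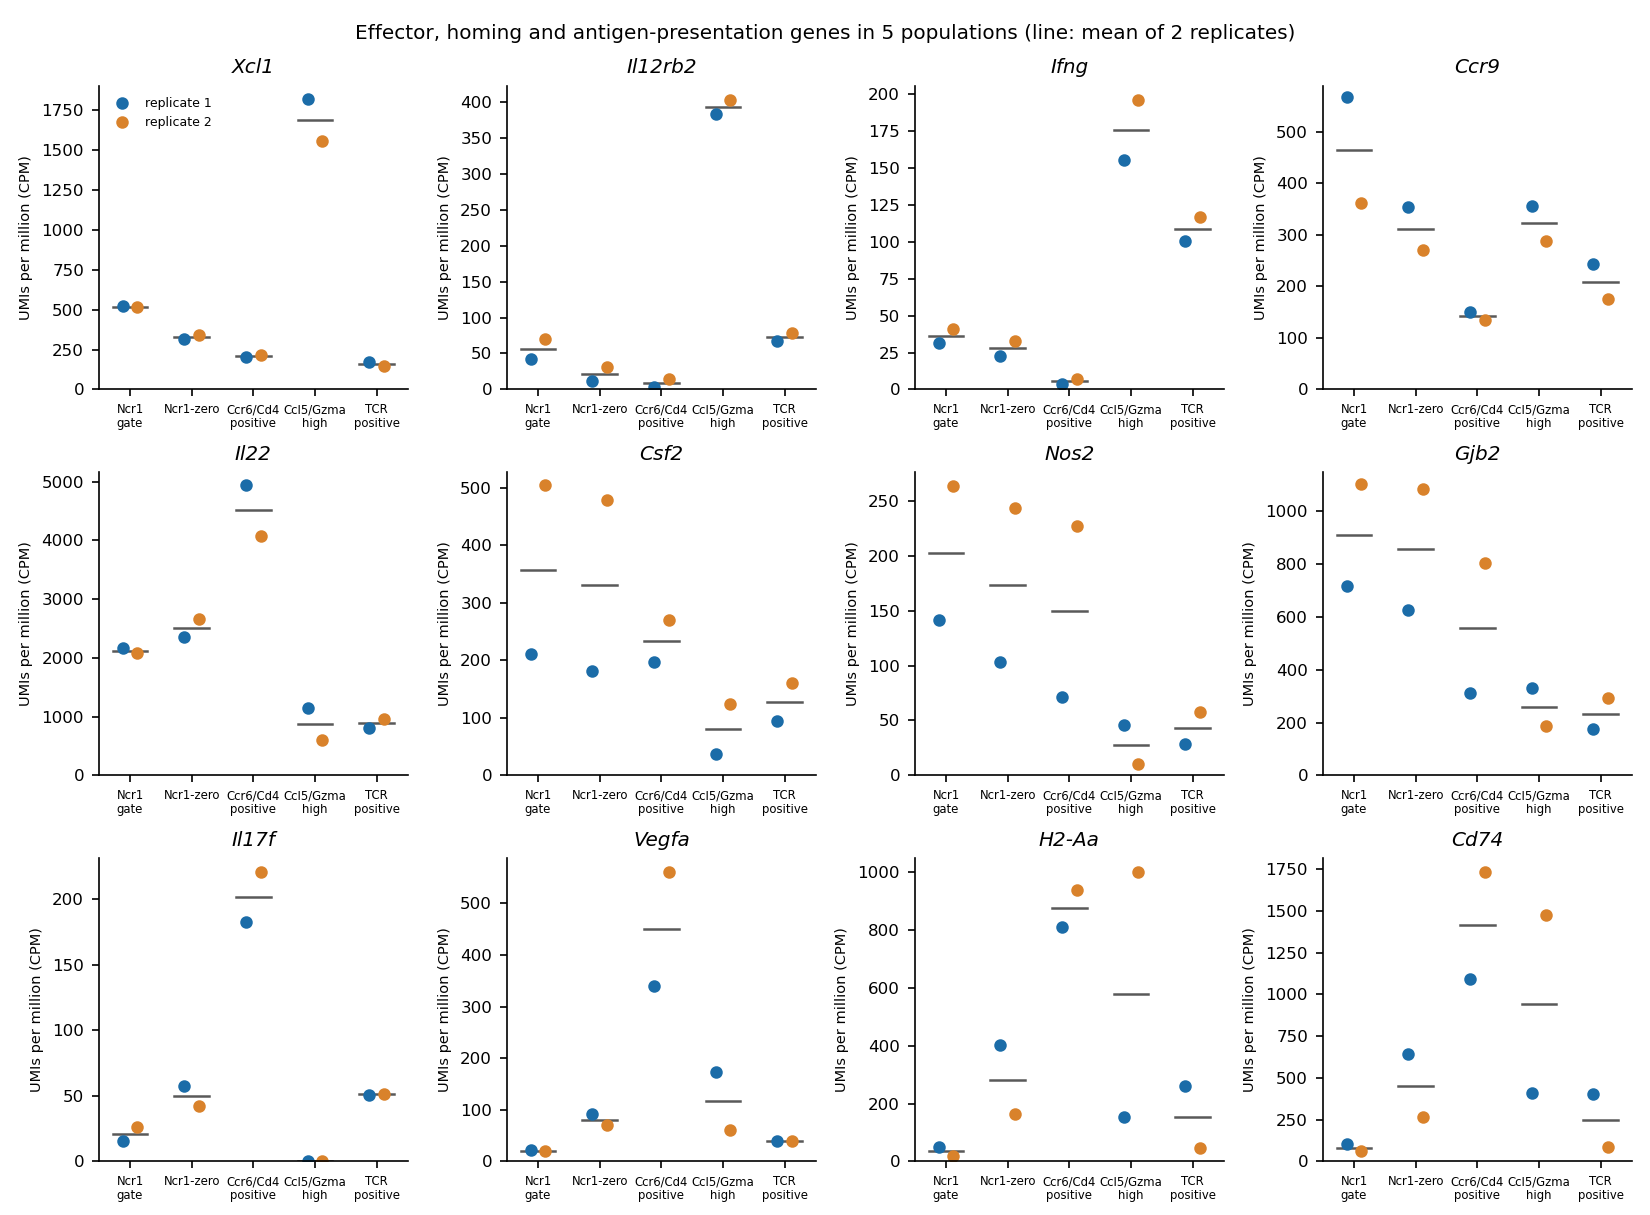
Levels (y axis, CPM of summed UMIs) of 12 effector, homing and antigen presentation genes in the Ncr1 gate and the 4 other populations (x axis), with 1 point per replicate and a line at the mean of 2 replicates. Il22 was highest in the Ccr6 or Cd4 positive cells (4947 and 4084 CPM) and Ifng, Il12rb2 and Xcl1 in the Ccl5 or Gzma high cells. The gate lay between those populations for each of these genes.

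By mean level, Il22 ran from Ccr6 or Cd4 positive cells through the counterparts and the gate to T cell receptor positive cells (814 and 964 CPM) and Ccl5 or Gzma high cells (1141 and 598 CPM), and this last pair overlapped. The gate and counterparts did not overlap, but their difference was not called. For Ifng the gate stood above the Ccr6 or Cd4 positive cells and below the Ccl5 or Gzma high cells, and both differences passed the test.

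**Figure D4:**
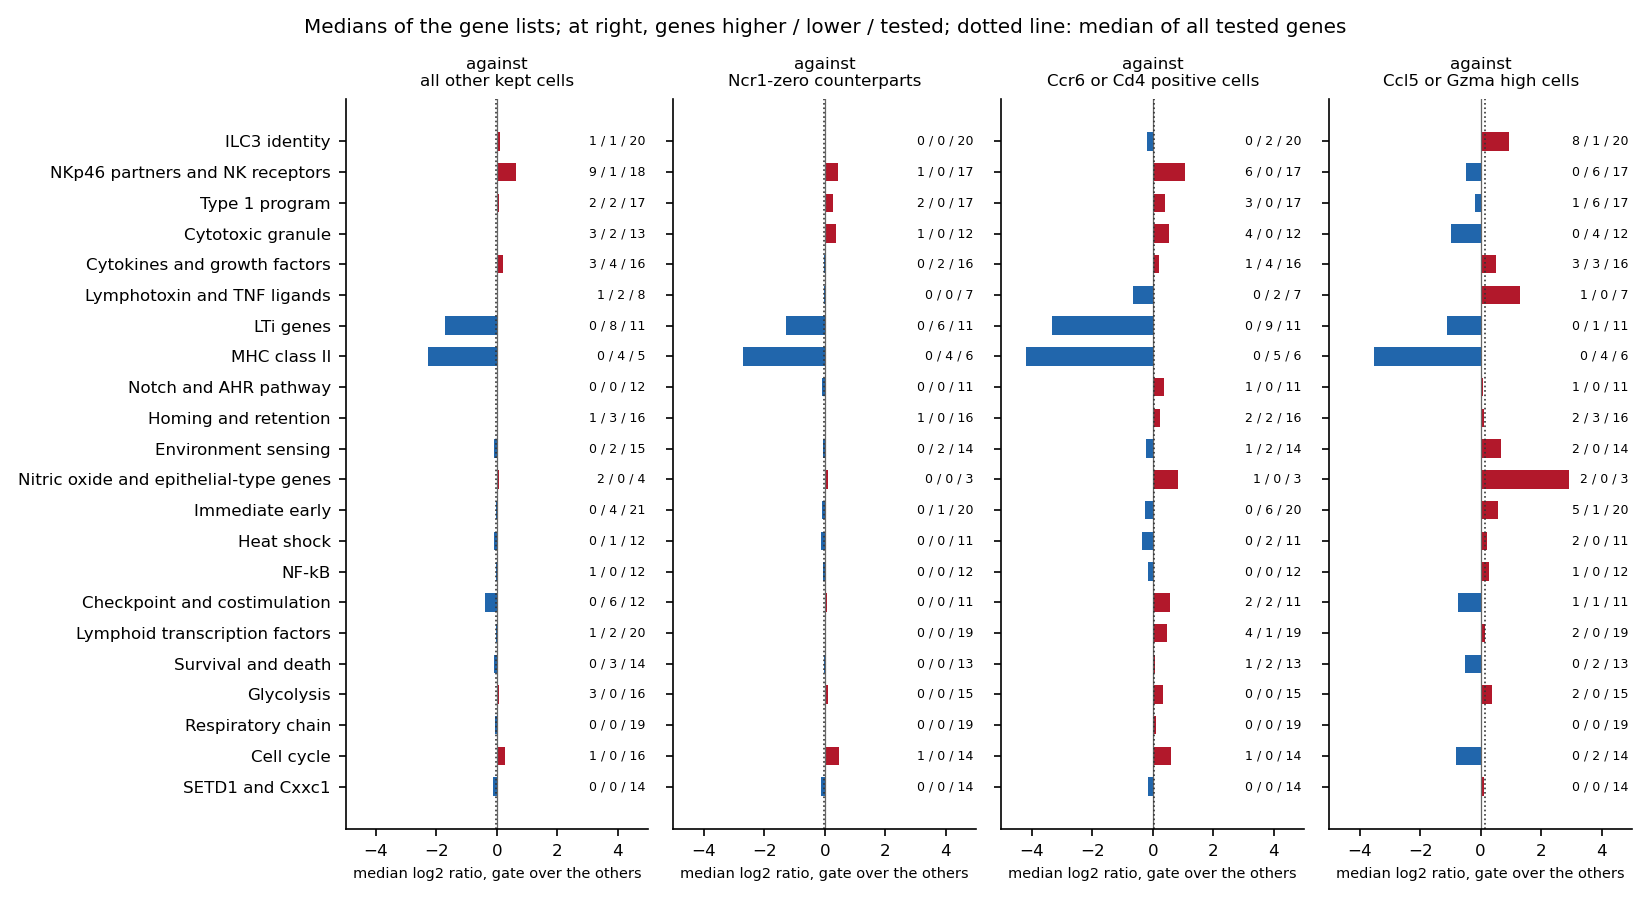
Bars give the median log2 ratio (x axis) of the tested genes of each list, the Ncr1 gate over the cells named above each panel, the numbers at right count genes higher, lower and tested, and the dotted line is the median of all tested genes. Of the lists shown, which leave out markers of other cells, MHC class II genes had the lowest median in all 4 comparisons, and natural killer receptor genes stood above 0 in all comparisons except that with the Ccl5 or Gzma high cells. In that comparison the class II median was -3.51, and -1.74 without marker-rich cells.

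Receptors by which ILC3s sense their surroundings differed by population. Icos had 1179 and 1688 CPM in the gate, against 657 and 835 CPM in the Ccl5 or Gzma high cells (log2 ratio 1.06, adjusted p = 7.3e-05). Ffar2, a receptor for short-chain fatty acids, had 424 and 335 CPM, against 155 and 144 CPM in the same cells (log2 ratio 1.46, SE 0.25, adjusted p = 0.00046). Gpr183, which senses oxysterols and positions ILC3s in the gut, had a log2 ratio of 0.93 there. Against the Ccr6 or Cd4 positive cells, Ret and Vipr2 were lower in the gate (log2 ratio -1.78 and -4.51). Of the Notch and AHR pathway genes, 0 were called by edgeR against all other kept cells or the counterparts, among 12 and 11 tested. Over all tested genes 5.56% and 1.14% were called, so these counts are near the overall shares. Maf was the single gene of the list called against each of the other populations. Its log2 ratio against the Ccl5 or Gzma high cells was -0.13 once cells with further T cell gene UMIs were left out. Leaving out marker-rich cells was a setting added after the data were seen. There Hes1, a Notch target, was called higher against all other kept cells (log2 ratio 0.66, adjusted p = 0.0077) and against the Ccr6 or Cd4 positive cells (2.99, adjusted p = 0.00061).

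Cxxc1, the gene in the series title and a subunit that guides the SETD1 histone methyltransferase to CpG islands, had 58.7 and 49.2 CPM in the gate, against 83.8 and 67.0 CPM in all other kept cells. The gate was lower in both replicates, with a log2 ratio of -0.51 (SE 0.17) and an adjusted p of 0.057, which missed the threshold. Without marker-rich cells, a setting added after the data were seen, Cxxc1 was called lower (log2 ratio -0.54, SE 0.17, adjusted p = 0.035). Against the counterparts, with 89.3 and 67.4 CPM, the log2 ratio was -0.55 (adjusted p = 0.25). Of 14 SETD1 complex genes, 0 were called by edgeR in any of the 4 comparisons with all kept cells, Cxxc1 being the 1 call without marker-rich cells, and their medians lay between -0.16 and 0.11. Over all tested genes 1.14 to 5.56% were called in those comparisons, so 0 of 14 is near the overall share.

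Within the gate, Il22 varied most between cells among genes not dominated by a single cell. At 1000 UMIs per cell its variance was 8.33 and 7.14 times its mean, over 491 and 369 cells, against a median of 1.04 over 2732 genes. An Il22 UMI was counted in 54.6% and 49.6% of gate cells (46.2% and 42.8% after thinning), against 33.6% and 29.97% of T cell receptor positive cells (24.5% and 21.9%). The 51 and 39 gate cells richest in Il22 held 63.8% and 58.5% of its UMIs, and the highest cells held 92 and 73. Cxcl10 (variance over mean 4.29 and 6.31), Zfp36 (3.97 and 5.46), Odc1 (3.58 and 4.26), Xcl1 (3.41 and 4.16) and Cxcl2 (3.53 and 7.83) were also among the 15 highest, of which 13 were among them at 1500 UMIs as well. Igkc, Igha and Jchain ranked high with over 50% of their UMIs in 1 cell of a replicate. Il7r (1.41 and 1.41) ranked 108 among the 2732 genes, Tbx21 (1.17 and 1.19) 379 and Kit (1.10 and 1.13) 754.

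**Figure D5:**
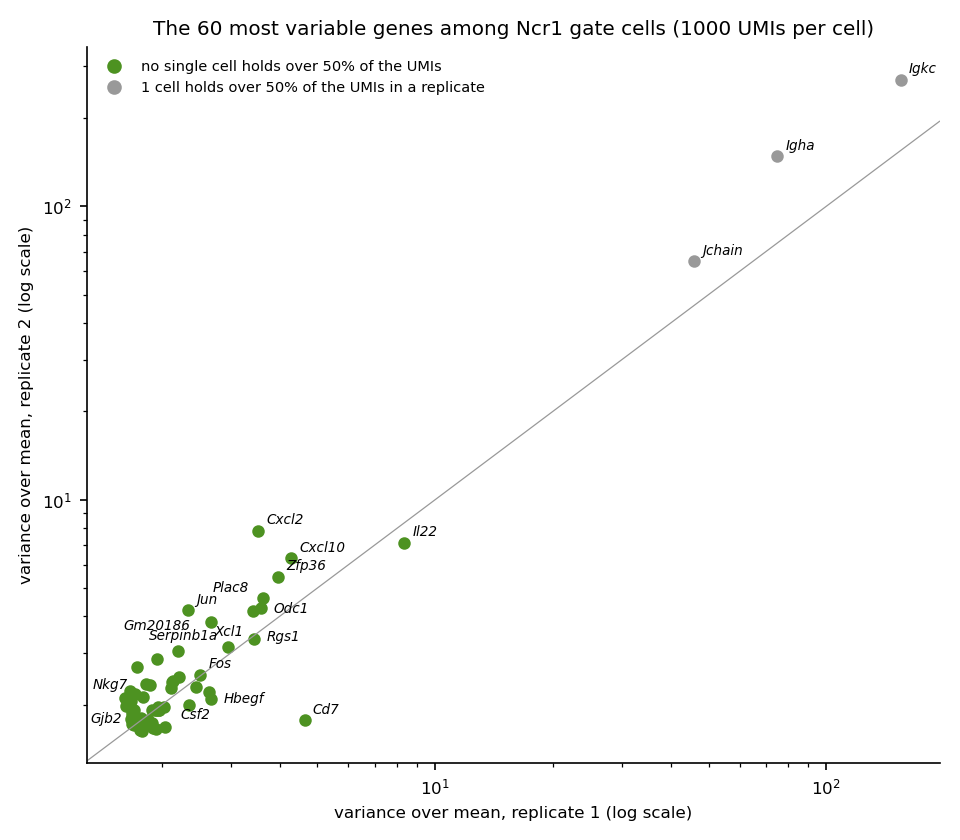
Variance over mean of UMIs among Ncr1 gate cells thinned to 1000 UMIs, in replicate 1 (x axis) and replicate 2 (y axis), both log scaled, for the 60 most variable genes, with grey points for genes with over 50% of their UMIs in 1 cell of a replicate and a line of equal values. Il22 stood apart from the other green points, and the immunoglobulin genes in grey lay furthest out.

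Effector transcripts were counted together in some gate cells. Csf2 was counted in 21.1% and 34.9% of gate cells, and in 23.1% and 38.0% of those with Il22 against 18.7% and 31.8% of those without. Xcl1 was counted in 27.4% and 24.5% of cells with Il22, against 31.7% and 33.3% of those without. Ifng was counted in 27 and 17 gate cells, of which 12 and 8 also held Il22, and Il17a in 5 and 9 cells. Nos2 and Gjb2 were counted together in 66 and 78 cells, with Gjb2 in 72.5% and 82.1% of Nos2-positive cells, against 56.7% and 70.5% of the others. Kit and Tbx21 were counted together in 47 and 19 cells. These shares follow depth and were not tested.

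Between replicates, 20 of 182 list genes with at least 100 UMIs in the gate differed by over 2-fold, 9 higher in replicate 1 and 11 higher in replicate 2, and 13 of the 20 did so in the same direction in all other kept cells. The heat shock gene Hspa1b had 22.6 CPM in the gate of replicate 1 and 545 CPM in that of replicate 2, while the other cells had 38.8 and 507 CPM. Egr1, an immediate early gene, ran the other way, with 351 and 93.1 CPM in the gate of replicates 1 and 2, where the other cells had 646 and 122 CPM. The chemokine gene Cxcl2 had 170 and 1014 CPM in the gate, and Fos 2132 and 712 CPM. The genes that separated the replicates of the gate were thus mostly ones that separated the replicates of the other cells. For the genes that differ between populations, the replicate entered each fit as a block.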

How the data were processed

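The deposited tables hold UMI counts per cell and gene; per the file headers they were made by the BD Rhapsody pipeline, and the submitters' processing notes name HISAT2 2.0.5 and Bowtie2. The authors' counts were taken as deposited, and sample tags assigned cells to the 2 replicates; tag multiplets were dropped and no doublet caller was run. UMI counts were summed per population and replicate over all genes of either table, of which 19031 were in both. A gene found in only 1 table entered as 0 in the other replicate. edgeR 4.0.16 in R 4.3.3 fitted the sums (TMM scaling, quasi-likelihood test, replicate as block, filterByExpr, Benjamini-Hochberg at 0.05). All other kept cells had a fit of their own; the other populations shared one fit. The 10 gate genes entered library sizes and were not tested. The block pairs populations taken from the same library. Named genes were, in each comparison, the 12 largest called changes in each direction with the same sign in both replicates and at least 50 UMIs, leaving out gate, mitochondrial, immunoglobulin and receptor segment and predicted genes, plus list members. DESeq2 1.42.0 gave an alternative test; setting the populations after thinning and leaving out cells with 20 or more other-type marker UMIs were added after the data were seen. Members and lists were chosen with earlier results of these data known. Fits were tested on simulated counts. Of 2-fold changes, 65% were recovered for all other kept cells and 60% for the counterparts. For the Ccr6 or Cd4 positive cells 32% were recovered, and for the Ccl5 or Gzma high cells 14%. The simulated counts had the same dispersion for every gene and no replicate differences, so these shares need not hold for the real sums. Intervals and floors cover counting error only. RefSeq windows were matched by symbol.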

Additional observations from a re-analysis of the deposited data

How the results depend on the processing

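The replicate block decided the counts of calls: without it edgeR called 0 genes against all other kept cells and 0 against the counterparts (303 and 82 at an unadjusted p under 0.05), 8 against the Ccr6 or Cd4 positive cells and 19 against the Ccl5 or Gzma high cells, where 558, 95, 331 and 306 were called with it. Against all other kept cells, calls numbered 80 with DESeq2's Wald test, 296 after thinning, 126 with at least 2 Ncr1 UMIs, 203 with further T cell genes barred and 166 with populations set after thinning. Against the counterparts they numbered 9, 57, 18, 32 and 37 under the same settings, 184 with no filter, 27 without cells with 2 or more other-type marker UMIs and 45 without cells with 20 or more. With further T cell genes barred, 90 were called against the Ccr6 or Cd4 positive cells and 33 against the Ccl5 or Gzma high cells. The cause of these differences was not tested. The gate's mean share was 3.51% with at least 2 Ncr1 UMIs, 8.48% when set after thinning, and 10.1 to 15.2% for single replicates. Il22 was counted in 44.5% of gate cells after thinning and 52.1% before. Of the named genes called, 20 of 47, 1 of 22, 23 of 41 and 6 of 37 in the 4 comparisons kept their call under every alternative other than the missing block and the Wald test. Directions reversed for Il22 (-0.08), Tpi1 (-0.11 with at least 2 Ncr1 UMIs) and Rrm2 (-0.29 to 2.40 without 1 replicate) against all other kept cells, for Col1a1 (-0.38) and Sparc (-0.00) against the Ccr6 or Cd4 positive cells, and against the Ccl5 or Gzma high cells for Maf (-0.13) and Jun (-0.61) with T cell genes barred, Jchain (-0.44, -2.0 and -0.14) and Mki67 (0.58). Depth limits detection: most gate cells held a single Ncr1 UMI.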
